A study of Mus musculus with 60 samples.

Results

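The 10 smooth muscle contractile genes Acta2, Tagln, Myl9, Cnn1, Cnn2, Tpm1, Tpm2, Actg2, Cald1 and Mylk were followed through 8 groups of mouse cancer-associated fibroblasts (CAFs), the activated fibroblasts of tumours. They were chosen by name, as the rows that carry these symbols among the 48440 genes listed in each of 3 count tables, and every symbol was found once. Bulk RNA sequencing was done on CAFs sorted away from the cancer cells before lysis. The labels call the cells tCAFs and do not explain the prefix, and no other treatment or genetic change of the CAFs is named for any group, except that the aggregates of CAFs alone are titled CAF-GFP.

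In the aggregate table, 9 libraries came from clumps in which the cells touch each other: 3 of CAFs alone, 3 with 393P and 3 with 344SQ. Both cancer lines derive from mouse lung adenocarcinoma, and 344SQ is known to metastasise readily in mice while 393P seldom does. The shRNA table added 6 aggregate libraries, 3 in which the partner was the 344SQ_shCTL line (shCTL) and 3 in which it was the 344SQ_shZEB1 line (shZEB1). In the Boyden table, a chamber whose membrane keeps the cell types apart, CAFs alone, with 393P or with 344SQ had 5 biological replicates each, and the counts of the 3 technical libraries of a replicate were summed. The labels call the replicates biological but do not say whether they came from separate animals or isolations, so the p-values measure the spread between these samples.

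Contraction of smooth muscle and of myofibroblasts starts when myosin light chain kinase (Mylk) phosphorylates the regulatory light chain of myosin (Myl9), after which myosin pulls on filaments of smooth muscle actin (Acta2, and Actg2 in visceral muscle). Tropomyosins (Tpm1, Tpm2) coat the actin filament, caldesmon (Cald1) and calponins (Cnn1, Cnn2) restrain its use of myosin, and transgelin (Tagln) binds and bundles actin. The genes are textbook targets of serum response factor, which works with myocardin-related cofactors at a sequence called the CArG box, and of transforming growth factor beta. In tumours a high Acta2 level is the usual mark of the myofibroblast-like class of CAFs.

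On the mouse genome (GRCm38) the actins lie at chr19:34241090-34255590 (Acta2, minus strand) and chr6:83512905-83536265 (Actg2, minus), the motor genes at chr2:156775420-156781658 (Myl9, plus) and chr16:34745210-35002420 (Mylk, plus). The thin-filament genes lie at chr9:67022590-67049406 (Tpm1, minus), chr4:43514711-43523765 (Tpm2, minus), chr6:34598500-34775473 (Cald1, plus), chr9:22099216-22109630 (Cnn1, plus), chr10:79988584-79996062 (Cnn2, plus) and chr9:45929619-45936058 (Tagln, minus). Acta2 and Actg2 encode near-identical proteins, and how reads that match both genes were counted is not given in the sources used here.

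Promoters were searched for the CArG box on both strands in the 250 bases before the RefSeq start (assembly GRCm38.p6), because the genes are known as targets of the factor that binds it. RefSeq promoter entries were found for 8 of the 10 genes, and an exact motif stood in 2 of them, Cnn2 and Myl9. Over all 32851 promoters of the same length, 1.47% held an exact motif and 18.6% held a motif with at most 1 base off. The motif began 56 bases before the start in Cnn2 and 161 bases before it in Myl9. In Acta2, the gene with the highest level in the Boyden chamber, 2 sites with 1 base off began 84 and 34 bases before the start. The 200 bases before the start of these 3 genes are shown 5′ to 3′ on the gene's strand, with motifs at most 1 base off in capitals. They lie at chr10:79988400-79988599 (plus strand), chr2:156775264-156775463 (plus strand) and chr19:34255374-34255573 (minus strand).
Cnn2: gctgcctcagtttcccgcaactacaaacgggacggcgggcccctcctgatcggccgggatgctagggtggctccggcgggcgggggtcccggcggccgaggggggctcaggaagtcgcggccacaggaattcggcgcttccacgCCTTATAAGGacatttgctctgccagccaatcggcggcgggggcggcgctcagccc
Myl9: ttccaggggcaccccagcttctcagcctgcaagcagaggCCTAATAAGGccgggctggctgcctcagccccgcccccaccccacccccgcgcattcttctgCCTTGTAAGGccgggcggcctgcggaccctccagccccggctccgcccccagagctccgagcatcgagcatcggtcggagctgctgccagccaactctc
Acta2: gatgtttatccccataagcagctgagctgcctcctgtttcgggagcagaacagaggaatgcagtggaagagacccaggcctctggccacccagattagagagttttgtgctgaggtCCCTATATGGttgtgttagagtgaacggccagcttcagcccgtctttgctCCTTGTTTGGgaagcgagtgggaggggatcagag
A match is a description of the letters, and no binding was measured.

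The aggregate libraries held 757717 to 1258751 counts, the shRNA libraries 739530 to 2144803 and the Boyden sums 4182944 to 8542262, so the Boyden values carried the least counting error. The biological coefficient of variation came to 16.2% for the aggregate table, 61.7% for the shRNA libraries and 8.58% for the Boyden sums. Fibroblast markers had summed levels of 1759 to 9340 CPM (counts scaled to a common library size) over all libraries, with at least 11 of the 12 detected in every group. Levels, with averages of single markers, are CPM after edgeR's TMM scaling. Summed marker levels, and ranges given as parts of a sum, are CPM scaled to total counts alone, without TMM. The same holds for upper limits of genes without counts and for levels without ribosomal RNA-like and mitochondrial genes. Marker sums and TMM-scaled levels of a library are thus not on the same scale. Changes are log2 differences with their standard error (SE). A gene was called changed at an adjusted p under 0.05 over all genes tested (edgeR quasi-likelihood test). Levels of different genes are compared only as CPM per kilobase (kb) of exon. In bulk RNA, fewer cells of a type and less RNA per cell cannot be told apart.

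In CAFs alone the contractile genes were far more abundant in the Boyden chamber than in the aggregates. Acta2 stood at 4692, 3571, 3969.6, 4187 and 4011 CPM in the 5 Boyden replicates of CAFs alone, against 12.1, 15.9 and 57.5 CPM in the 3 aggregate libraries. The ratio of the means was 144-fold, and 93.5-fold when ribosomal RNA-like and mitochondrial genes were left out of the totals. Tagln stood at 536 to 801 CPM in the Boyden chamber and at 7.93 to 17.2 CPM in aggregates, a ratio of 55.0 (35.7 without those genes). The ratios were lower for Cnn2 (11.3), Myl9 (11.2), Tpm2 (between those of Myl9 and Tpm1), Tpm1 (9.57) and Cald1 (5.70), and Mylk had the lowest ratio, 1.86, which became 1.20 without those genes. For all 8 of these genes every Boyden replicate of CAFs alone lay above every aggregate library of CAFs alone. For Mylk this did not hold without ribosomal RNA-like and mitochondrial genes, where aggregate replicate 1 had 47.3 CPM and the Boyden replicates 35.5 to 44.3 CPM. The share of all genes that lay apart between the formats in this way is not given. The count of 8 is thus not read as particular to contractile genes. The tables were made and scaled separately, so the culture format cannot be told apart from any other difference between them. Ribosomal RNA-like genes took 18.9% to 24.9% of the counts in the aggregates and 0.284% to 0.497% in the Boyden sums, and mitochondrial genes 19.0% to 24.3% and 10.8% to 15.0%. The part of these shares in the gap beyond the ratios given was not tested.

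Cnn1 and Actg2, textbook markers of the differentiated muscle cell, lay at the floor of the aggregates. Cnn1 had 53.5 to 64.8 CPM in Boyden CAFs alone, but 1, 1 and 0 counts in the 3 aggregate libraries of CAFs alone, 0 in all 3 with 393P, and 2, 0 and 0 with 344SQ. With 3 counts as the limit that a count of 0 allows, Cnn1 in the 393P aggregates could reach 0.894 CPM over the group. Actg2 had 0 counts in all 9 aggregate libraries, which allows up to 1.04 CPM in CAFs alone, and 0 to 9 counts per replicate in the Boyden sums. These limits cover counting error only. Actg2 passed the count filter in no table, so 9 of the 10 genes could be tested in the Boyden chamber and 8 in each aggregate table.

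**Figure D1:**
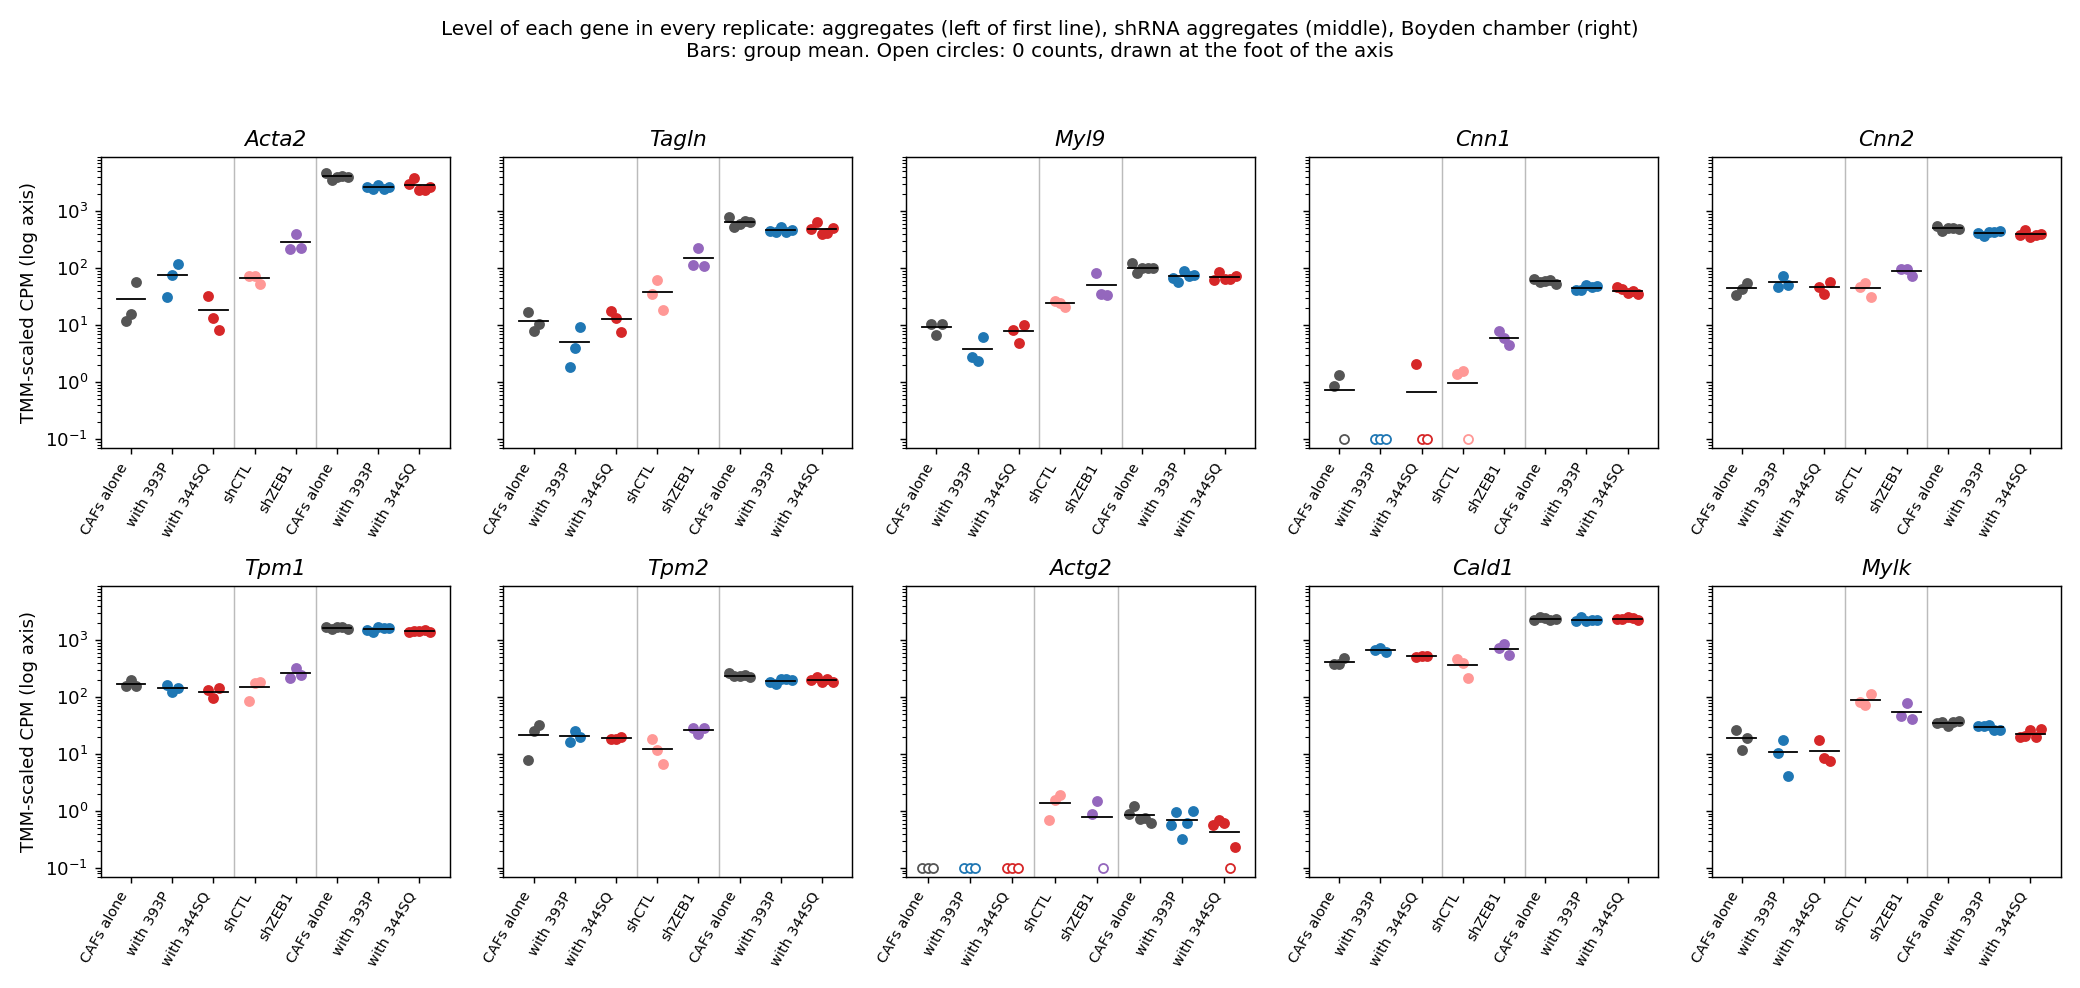
TMM-scaled CPM (log axis) of each of the 10 genes in every replicate of the 8 groups, with bars at the group means and open circles at the foot of the axis for 0 counts. In Boyden CAFs alone Acta2 sits between 3571 and 4692 CPM, against 12.1 to 57.5 CPM in aggregates of CAFs alone, while Mylk differs least between the formats.

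The order of the genes per length differed between the formats too. In Boyden CAFs alone Acta2 led with a level of 1861 ± 185 CPM per kb (SD, n = 5), followed by Tagln at 329 ± 49.2, Tpm1 at 254 ± 10.5, Cnn2 at 205 ± 15.5 and Cald1 at 197 ± 11.3 CPM per kb. The ranges of neighbours in this order overlapped for Cnn2 with Cald1 and for Myl9 with Tpm2, and for no other pair of neighbours. In aggregates of CAFs alone Cald1 led with 34.6 ± 5.24 CPM per kb (SD, n = 3), then Tpm1 with 26.5 ± 3.68 and Cnn2 with 18.1 ± 4.27, and Acta2 followed with 13.0 ± 11.5 CPM per kb. By their means Cald1 led in all 3 aggregate groups and Acta2 in the 3 Boyden and both shRNA groups. The range of the leading gene overlapped that of the next in the 393P aggregates (Cald1 and Acta2) and in both shRNA groups, and in none of the other 5 groups. The 10 genes together took 0.895% to 1.05% of all counts in Boyden CAFs alone and 0.0656% to 0.0808% in aggregates of CAFs alone.

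In aggregates with 393P the actin Acta2 and the caldesmon gene Cald1 rose. Of the 8 genes tested, these 2 were called higher and none lower, where 10.7% of the 7992 genes tested were called in that comparison. With 344SQ in aggregates none of the 8 was called against CAFs alone, where 5.84% of all genes were. Between the lines, Acta2 alone was called, lower with 344SQ than with 393P, where 4.15% of all genes were called.

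For the actin, Acta2 had 31.0, 76.9 and 121 CPM in the 393P aggregates, 32.9, 13.3 and 8.40 CPM in the 344SQ aggregates and 12.1, 15.9 and 57.5 CPM in CAFs alone. The highest library of CAFs alone lay above the lowest 393P library, and the highest 344SQ library above that too, so the groups overlapped. The log2 change with 393P was 1.41 ± 0.43 (adjusted p = 0.0295, edgeR), with 344SQ -0.64 ± 0.52 (adjusted p = 0.611), and between 344SQ and 393P -2.05 ± 0.46 (adjusted p = 0.00534). These calls rest on 9 to 116 counts per library. The 393P call was lost when CAFs alone replicate 1 (log2 change 0.99) or 2 (1.16), or 393P replicate 2 (1.40) or 3 (0.95), was left out, and the difference between the lines when 393P replicate 3 (-1.58) or 344SQ replicate 3 (-1.68) was. DESeq2 gave Acta2 like changes and called neither (adjusted p = 0.489 with 393P and 0.255 between the lines).

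For the thin filament, Cald1 had 658, 712 and 623 CPM with 393P, 499.8, 532 and 527 CPM with 344SQ, and 375, 386 and 489 CPM in CAFs alone. All 3 groups were free of overlap, in the order 393P, 344SQ, CAFs alone. Of the 7992 genes tested, 1052 lay higher without overlap with 393P than in CAFs alone, and 849 with 344SQ. Between the lines 734 lay lower without overlap with 344SQ. The log2 change was 0.67 ± 0.15 with 393P (adjusted p = 0.00232) and 0.32 ± 0.15 with 344SQ (adjusted p = 0.295, edgeR). The tropomyosin Tpm1 had 144 ± 20.6 CPM (SD, n = 3) with 393P, 125 ± 25.3 with 344SQ and 172 ± 23.8 CPM in CAFs alone, with no call in any aggregate comparison. Its 344SQ libraries lay below those of CAFs alone without overlap, as for 869 of the 7992 genes tested. The log2 change of Tpm1 there was -0.45 ± 0.18 (adjusted p = 0.168, edgeR). Cnn2, the calponin of non-muscle cells, ranged from 34.5 to 72.2 CPM over all 9 libraries and Tpm2 from 7.76 to 32.4 CPM, and neither was called.

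Tagln, Myl9 and Mylk had lower means with 393P, without passing the test. Myl9, the light chain, had 2.81, 2.38 and 6.27 CPM with 393P and 10.3, 6.61 and 10.5 CPM in CAFs alone, groups that did not overlap, with a log2 change of -1.30 ± 0.57 (adjusted p = 0.165, edgeR). Of the 7992 genes tested, 1029 lay lower without overlap with 393P. Tagln had 1.88, 3.96 and 9.40 CPM with 393P against 17.2, 7.93 and 10.5 CPM, a log2 change of -1.29 ± 0.55 (adjusted p = 0.143, edgeR), which passed the test without 393P replicate 3 (-1.98, adjusted p = 0.0467). Mylk, the kinase, had 10.3, 17.4 and 4.18 CPM with 393P and 26.7, 11.9 and 18.8 CPM in CAFs alone, which overlapped. Each of these libraries held between 2 and 31 counts of the gene, so changes of this size were at the limit of the depth. Tagln counts are also uncertain because 67.9% of its exon bases (chromosome 9, 45929619 to 45936058, GRCm38) overlap Pcsk7 and Gm48529 on the opposite strand, and the strand setting of the counting is not given in the sources used here. For Mylk the overlap was 6.85%, with E130310I04Rik and Gm21691, and for the other 8 genes there was none.

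Markers of other cells moved with the 393P group. The summed level of 20 carcinoma markers was 20.8 to 96.8 CPM with 393P, 16.9 to 33.0 CPM with 344SQ and 8.11 to 14.5 CPM in CAFs alone, and the 393P library with 96.8 CPM, replicate 3, was also the one with 121 CPM of Acta2. The 10 markers of mural cells, the pericytes and muscle cells of vessels, summed to 1445 to 2219 CPM with 393P against 382 to 422 CPM in CAFs alone. Pdgfrb, which fibroblasts also express, made up 1257 to 1913 CPM of that sum, and the other 9 markers summed to 178 to 306 CPM with 393P and 23.8 to 34.5 CPM in CAFs alone. Among them Notch3 averaged 146 CPM with 393P and 18.0 CPM in CAFs alone, Cspg4 64.2 and 9.42 CPM, and Mcam 16.4 and 0.697 CPM. Rgs5 and Myh11 averaged 0.313 and 0.841 CPM with 393P, and Higd1b and Kcnj8 were at 0 there. Among the carcinoma markers Krt8 averaged 14.5 CPM with 393P and 0.287 CPM in CAFs alone, Krt19 9.55 and 1.80 CPM, and Cldn4 7.28 and 0.636 CPM. Per 393P library Krt8 had 1 to 39 counts, Krt19 1 to 25 and Cldn4 4 to 14, so the libraries differed widely. Lcn2 and Nkx2-1 went the other way, from 0.881 and 0.441 CPM in CAFs alone to 0 with 393P. Of the 20, 14 had a count with 393P and 11 in CAFs alone, and Epcam had 0 or 1 counts per library with 393P and 0 in the other aggregates. Endothelial markers summed to 323 to 524 CPM with 393P and 39.6 to 59.8 CPM in CAFs alone, of which Flt1 made up all but 5.04 to 6.34 CPM with 393P, and Cdh5 was at 0 in both groups. The part of these markers in the Acta2 and Cald1 changes was not tested.

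In aggregates with the 344SQ_shZEB1 line, 8 of the 10 contractile genes had higher levels in all 3 libraries than in any of the 3 shCTL libraries, but none was called. The 8 were Acta2, Tagln, Myl9, Cnn2, Tpm1, Tpm2, Cald1 and, below the count filter, Cnn1. Among the 8 genes tested, 7 were higher without overlap, where 6.18% of the 7801 genes tested were, and 3 had an unadjusted p under 0.05, where 5.97% of all genes had. No gene of the table was called by edgeR (0% of genes, 466 with an unadjusted p under 0.05), while DESeq2 called 26 genes, of which 1, Acta2 (adjusted p = 0.0375), was contractile. Without the count filter edgeR called 90 of 21430 genes, again with Acta2 as the contractile gene (adjusted p = 0.0305). The median log2 change of the 8 genes tested was 1.04, against -0.02 over all genes tested.

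Zeb1, named in the label of the shRNA line, had 71.8, 105 and 50.3 CPM with shCTL and 144, 48.4 and 120 CPM with shZEB1. The libraries hold RNA of sorted CAFs and the labels put the shRNA in the 344SQ line, so these levels do not check the knockdown. Acta2 had 72.4, 74.1 and 53.2 CPM with shCTL and 216, 408 and 228 CPM with shZEB1, a log2 change of 2.09 ± 0.46 (unadjusted p = 0.000427, adjusted p = 0.666, edgeR). The lowest shZEB1 library lay above the highest shCTL library. Tagln had 35.5, 62.3 and 18.4 CPM against 116, 224 and 109 CPM, a log2 change of 1.94 ± 0.56 (unadjusted p = 0.00377, adjusted p = 0.692, edgeR).

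The thin-filament genes and the light chain had smaller differences of the same sign. Cald1 had 463, 399 and 212 CPM with shCTL and 717, 842 and 550.3 CPM with shZEB1, a log2 change of 0.97 ± 0.43 (unadjusted p = 0.0386, adjusted p = 0.799, edgeR). Log2 changes of Myl9 (1.07 ± 0.65), Tpm2 (1.08 ± 0.74), Cnn2 (1.01 ± 0.51) and Tpm1 (0.81 ± 0.45) had adjusted p-values of 0.799 to 0.841 (edgeR). The change of Myl9 was 0.49 without shZEB1 replicate 1, which had 83.4 CPM against 35.2 and 33.3 CPM in the other shZEB1 libraries. Cnn1, the calponin of differentiated muscle, had 2, 2 and 0 counts with shCTL and 18, 4 and 7 with shZEB1, which was 0.981 ± 0.856 and 6.08 ± 1.72 CPM (SD, n = 3).

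The kinase gene Mylk went the other way, with 81.3, 73.3 and 115 CPM in shCTL and 46.5, 77.8 and 41.0 CPM in shZEB1, groups that overlapped (log2 change -0.72 ± 0.51, adjusted p = 0.848, edgeR). The contractile genes together took 0.0681% to 0.0709% of the counts with shCTL and 0.157% to 0.188% with shZEB1. Within shCTL, replicate 3 was the lowest library for 7 of 9 genes compared, all but Tpm1 and Mylk. That library had 1791 CPM of carcinoma markers, against 210 and 359 CPM in the other shCTL libraries, and 1759 CPM of fibroblast markers, against 2751 and 4497 CPM. In shZEB1 the carcinoma sum was 145, 1295 and 596 CPM and the fibroblast sum 4600, 3944 and 3651 CPM. Mural markers summed to 874, 818 and 742 CPM with shCTL and 1199, 810 and 579 CPM with shZEB1. Endothelial markers, mostly Flt1, summed to 209, 87.8 and 120 CPM and to 1081, 133 and 102 CPM. Of the shZEB1 libraries, replicate 1 was highest for Myl9, Cnn1, Cnn2 and Tpm2 and lowest for Acta2 and Tpm1. The part of mural and endothelial markers in the differences was not tested. Without the richest library of each group in carcinoma markers, an alternative chosen after seeing the data, the log2 changes of Acta2 and Tagln were 1.60 and 1.21, again with no call (adjusted p = 0.418 and 0.611, edgeR). Mitochondrial genes took 26.1% to 40.8% of counts with shCTL and 23.5% to 27.6% with shZEB1, and their part in the differences was not tested.

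The shCTL aggregates, labelled as CAFs with 344SQ cells that carry a control shRNA, had other levels than the aggregates with 344SQ. Acta2 averaged 66.6 ± 11.6 CPM with shCTL and 18.2 ± 13.0 CPM in the 344SQ aggregates (SD, n = 3 each), Tagln 38.7 ± 22.1 and 12.8 ± 5.03 CPM, and Mylk 89.9 ± 22.2 and 11.1 ± 5.51 CPM. Cnn2 averaged 44.4 ± 12.1 and 46.4 ± 11.3 CPM. The mural gene Rgs5 averaged 137 CPM with shCTL and 125 CPM with shZEB1, and had 0 counts in the 344SQ aggregates. These are levels from tables made and scaled separately, and no test was made between them.

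**Figure D2:**
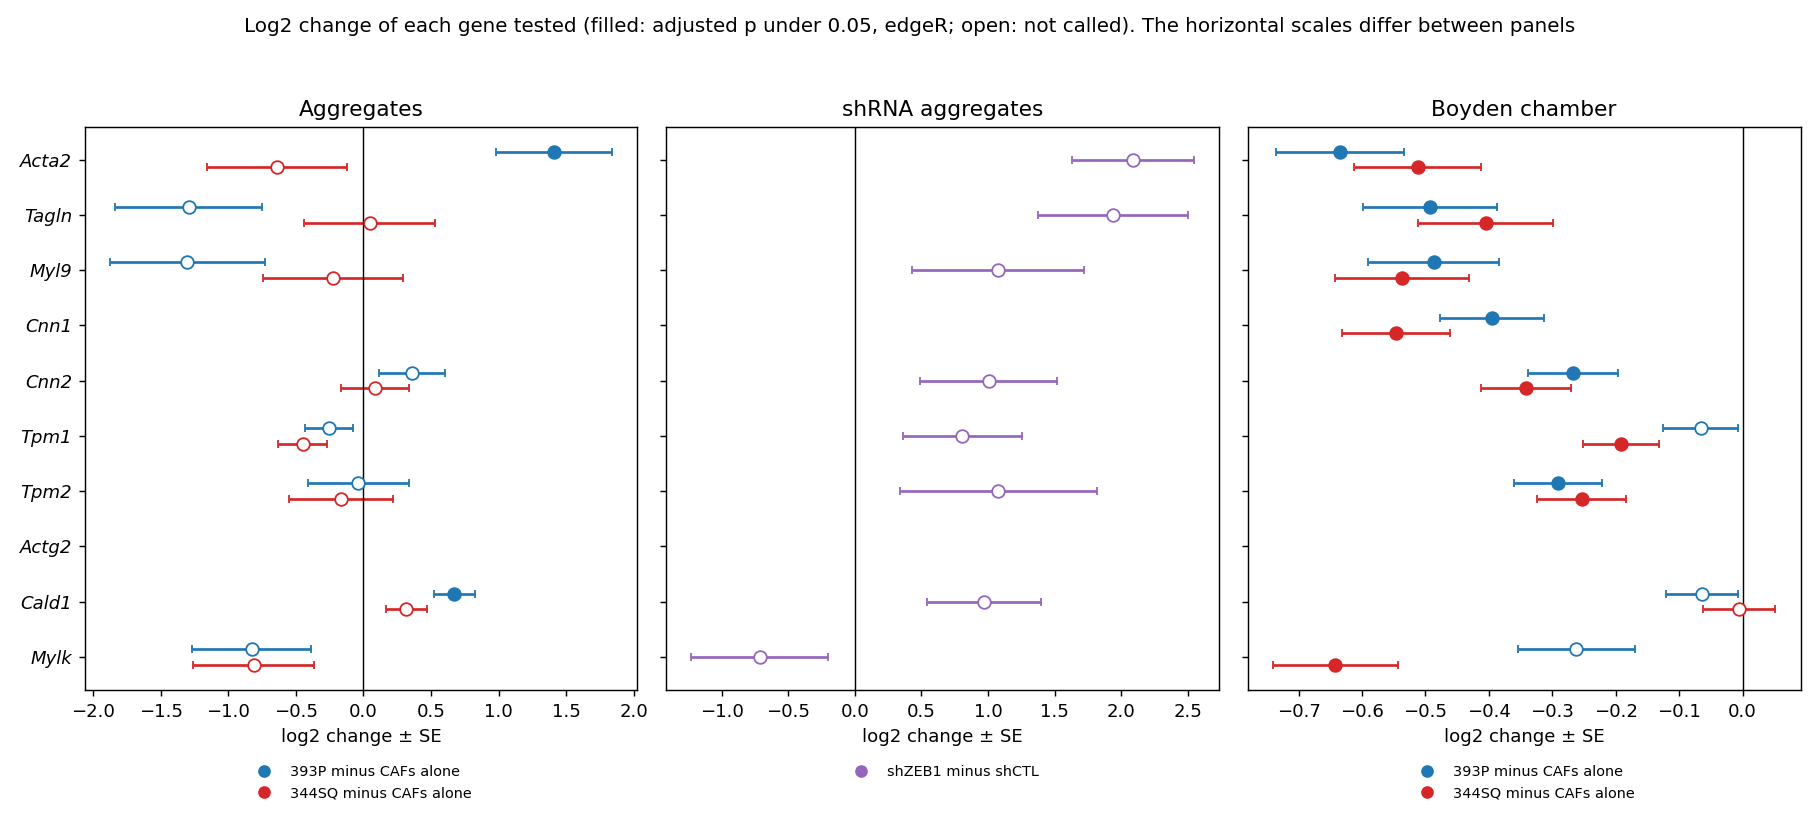
Log2 change ± SE of each gene tested (rows) against CAFs alone in aggregates and in the Boyden chamber, and for shZEB1 against shCTL; filled points passed the adjusted p of 0.05 and the horizontal scales differ. Acta2 lies at 1.41 with 393P in aggregates and at -0.63 with 393P in the Boyden chamber, where every point lies at or below 0.

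Across a membrane most of the contractile genes tested fell with each cancer line. With 393P, 6 of the 9 genes tested were called lower and none higher, where 15.6% of the 14040 genes tested were called and 7.96% were called lower. With 344SQ, 8 of 9 were called lower and none higher, where 14.9% were called and 7.44% were called lower. The 6 genes lower with 393P (Acta2, Tagln, Myl9, Cnn1, Cnn2 and Tpm2) were among the 8 lower with 344SQ, which added Tpm1 and Mylk. Both comparisons use the same 5 replicates of CAFs alone, so they are not independent. The falls were small, between -0.19 and -0.64 on the log2 scale among the called genes, and the median log2 changes of the 9 genes were -0.29 with 393P and -0.41 with 344SQ, against 0.00 and 0.01 over all genes tested.

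Acta2 had 2634, 2452, 2849, 2504 and 2721 CPM with 393P and 2966, 3907, 2385, 2341 and 2721 CPM with 344SQ, against 3571 to 4692 CPM in CAFs alone. Every 393P replicate was below every replicate of CAFs alone, while 344SQ replicate 2 (3907 CPM) reached into their range. The log2 changes were -0.63 ± 0.10 with 393P (adjusted p = 0.000113) and -0.51 ± 0.10 with 344SQ (adjusted p = 0.000764, edgeR). Tagln had 456, 441, 526, 437 and 461 CPM with 393P and 488, 658, 394, 419 and 504 CPM with 344SQ, against 801, 536, 608, 675 and 647 CPM in CAFs alone. Its 393P replicates lay below all replicates of CAFs alone and its 344SQ replicate 2 did not, with log2 changes of -0.49 ± 0.11 (adjusted p = 0.00232) and -0.41 ± 0.11 (adjusted p = 0.0102, edgeR). The Acta2 calls with both lines were lost with the first and with the second technical library alone. So was the Tagln call with 393P, and the Tagln call with 344SQ was lost with each technical library alone.

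In the motor, the light chain gene Myl9 averaged 102 ± 13.5 CPM in CAFs alone, 73.0 ± 11.9 with 393P and 70.4 ± 9.68 with 344SQ (SD, n = 5), and the groups overlapped. Its log2 changes were -0.49 ± 0.10 (adjusted p = 0.00198) and -0.54 ± 0.11 (adjusted p = 0.00078, edgeR). The kinase gene Mylk had 34.7, 36.9, 31.1, 36.3 and 38.7 CPM in CAFs alone, 31.1, 30.5, 32.9, 26.8 and 26.8 CPM with 393P and 20.3, 20.5, 26.1, 20.1 and 27.5 CPM with 344SQ. All 5 replicates with 344SQ lay below all of CAFs alone, and the 393P group overlapped with both others. Mylk fell with 344SQ (-0.64 ± 0.10, adjusted p = 3.9e-05), and its change with 393P was -0.26 ± 0.09 (adjusted p = 0.0535, edgeR). It was also the sole contractile gene called between the lines (344SQ against 393P, -0.38 ± 0.10, adjusted p = 0.0309), where 3.88% of all genes were called. That call was lost without any of 6 of the 10 cancer line replicates, when the analysis was limited to these groups, and in sums thinned to equal depth.

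Among the calponins, Cnn1 had 64.8, 56.3, 60.1, 63.4 and 53.5 CPM in CAFs alone, 40.9, 40.8, 50.1, 46.9 and 48.1 CPM with 393P and 47.8, 42.7, 37.1, 40.0 and 35.7 CPM with 344SQ. No replicate with a cancer line reached the lowest replicate of CAFs alone. The log2 changes of Cnn1 were -0.39 ± 0.08 (adjusted p = 0.00165) and -0.55 ± 0.09 (adjusted p = 4.56e-05, edgeR). Cnn2 averaged 505 ± 38.1 CPM in CAFs alone, 419 ± 33.5 with 393P and 398 ± 38.7 with 344SQ (SD, n = 5), with log2 changes of -0.27 ± 0.07 and -0.34 ± 0.07 that both passed the test.

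Of the tropomyosins, Tpm2 fell with both lines, by 0.29 ± 0.07 with 393P and by 0.25 ± 0.07 with 344SQ on the log2 scale. The latter call was lost without 344SQ replicate 3 (-0.22) and with each technical library alone. Tpm1 fell with 344SQ, from 1568 to 1709.6 CPM in CAFs alone to 1407 to 1519 CPM without overlap (-0.19 ± 0.06, adjusted p = 0.0301), a call lost without any of 6 replicates. With 393P its log2 change was -0.07 ± 0.06 (adjusted p = 0.504, edgeR). Cald1, which rose with 393P in aggregates, stood at 2376 ± 136, 2273 ± 132 and 2368 ± 90.1 CPM in CAFs alone, with 393P and with 344SQ (SD, n = 5). Its log2 changes were -0.06 ± 0.06 and -0.01 ± 0.06, and neither passed the test. Actg2 averaged 0.842, 0.691 and 0.426 CPM in the 3 groups and was not tested.

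Replicate values without overlap, lower than CAFs alone, were found for 5 of the 9 genes with 393P, where 6.30% of all genes tested showed this, and for 3 of 9 with 344SQ (Cnn1, Tpm1 and Mylk), where 5.08% did. Replicates moved together across genes. In CAFs alone, replicate 1 held the highest value of 7 of the 9 genes, in 393P replicate 3 held 7, and in 344SQ replicate 2 held 5, among them Acta2, Tagln and Myl9. Technical libraries of a replicate also differed. For Acta2 in CAFs alone they ran from 2923 to 6224 CPM, with a mean SD within a replicate of 1128 CPM against an SD of 407 CPM between the replicate sums, and with 344SQ these SDs were 565 and 637 CPM. The SDs within a replicate are of single libraries and the others of sums of 3 libraries, so they are not like measures. With a single technical library per replicate, 4, 0 and 5 of the 9 genes were called with 393P, where 609 of 10417, 199 of 11258 and 1133 of 11644 genes tested were. With 344SQ 3, 4 and 3 were called, where 500, 513 and 739 of all genes were.

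Carcinoma markers differed between the Boyden groups, with summed levels of 25.6 to 40.1 CPM in CAFs alone, 18.1 to 91.7 CPM with 393P (91.7 CPM in replicate 1) and 55.1 to 75.1 CPM with 344SQ. Lcn2, which fibroblasts can also make, was the largest part of the 344SQ sum at 22.7 to 26.4 CPM. The other markers summed to 29.4 to 51.9 CPM with 344SQ, which overlapped the range of CAFs alone. Cdh1 averaged 2.83 CPM in CAFs alone, 6.19 CPM with 393P and 8.56 CPM with 344SQ, and Krt18 2.31, 4.49 and 4.49 CPM. Esrp2, the largest part of the sum in CAFs alone, went the other way, with 11.2, 7.98 and 9.25 CPM. Of the 20 markers, 17 had a count in CAFs alone and 18 with each line, and Cldn3 was at 0 in all 3 groups. Without the technical library richest in these markers, the second of 393P replicate 1, 7 contractile genes were called lower with 393P in place of 6. This alternative was chosen after seeing the data, and 1165 of the 13935 genes tested were called lower in it. Mural markers summed to 201 to 243 CPM in CAFs alone, 194 to 213 CPM with 393P and 164 to 213 CPM with 344SQ, and Rgs5 averaged at most 0.905 CPM in any Boyden group. Fibroblast markers summed to 8884 to 9340 CPM in CAFs alone, 7679 to 8005 CPM with 393P and 7033 to 7663 CPM with 344SQ, without overlap with CAFs alone. Endothelial markers, mostly Flt1, summed to 86.0 to 96.0, 60.1 to 67.0 and 77.9 to 83.4 CPM, also without overlap with CAFs alone. The part of these markers in the changes of the contractile genes was not tested. The 344SQ sums were also the shallowest, with 4182944 to 5857925 counts. After thinning all sums to the smallest, 6 and 8 contractile genes were again called lower with 393P and 344SQ. In these fits 869 and 862 of the 12884 genes tested were called lower.

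**Figure D3:**
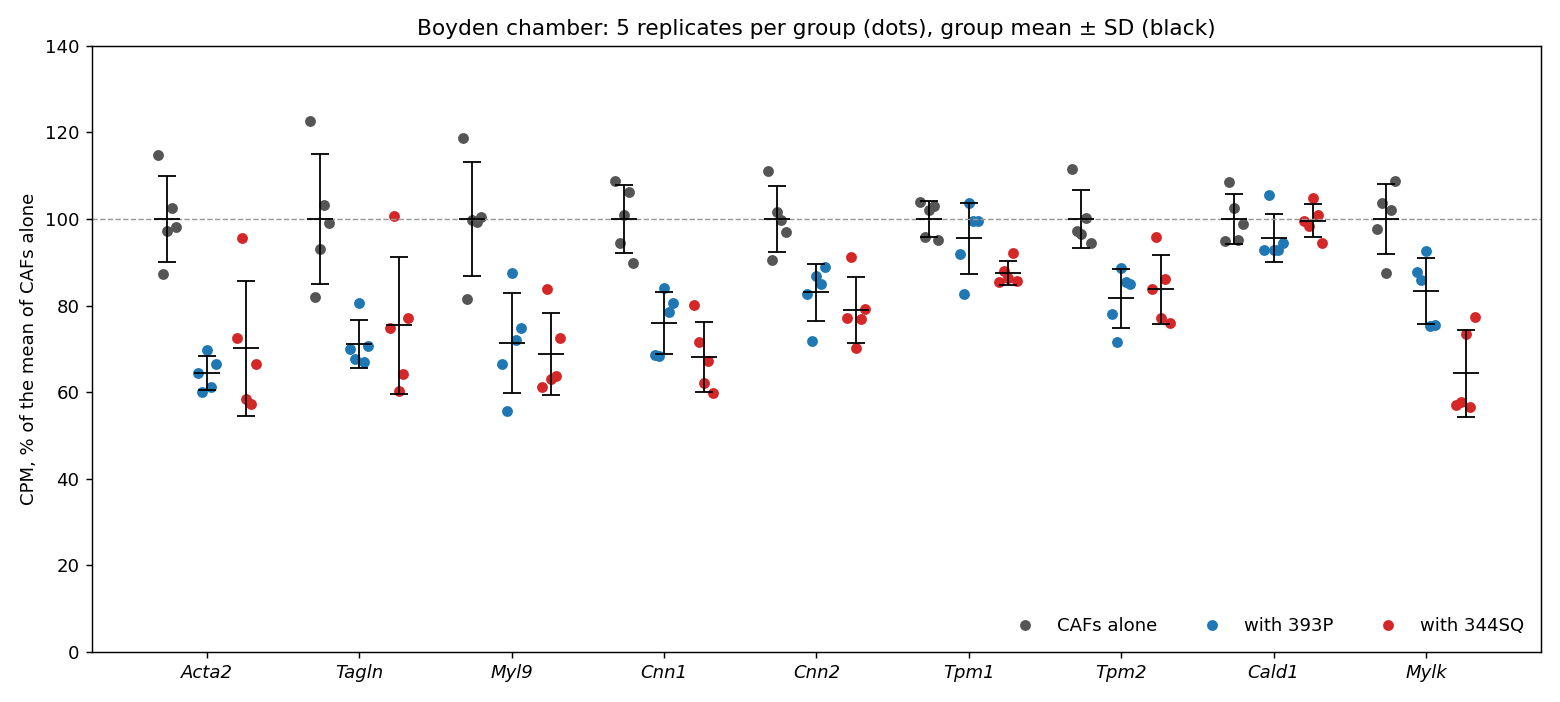
Level of the 9 genes tested in the Boyden chamber as a percentage of the mean of CAFs alone (vertical axis) in each of 5 replicates per group (dots), with the group mean ± SD in black. Acta2, Tagln, Cnn1, Cnn2 and Tpm2 with 393P and Cnn1, Tpm1 and Mylk with 344SQ lie wholly below CAFs alone, and Cald1 overlaps in all groups.

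The response to 393P differed between the culture formats for Acta2, Cnn2 and Cald1. In a joint fit of both tables, which tests the change in aggregates minus the change in the Boyden chamber, these 3 of 9 genes were called, all higher in aggregates, where 8.98% of the 15193 genes tested were called. Acta2 rose with 393P in aggregates (1.41) and fell in the chamber (-0.63), a difference of 2.12 ± 0.40 (adjusted p = 0.000168, edgeR). The difference was 0.81 ± 0.13 for Cald1 (adjusted p = 1.9e-05) and 0.72 ± 0.23 for Cnn2 (adjusted p = 0.0374), and that of Cnn2 was lost under 4 other settings and without any of 5 replicates. Acta2 and Cald1 kept their calls in every alternative run, all of them joint fits. Tagln (-0.79 ± 0.58) and Myl9 (-0.79 ± 0.58) had differences of the opposite sign that did not pass. For 344SQ no contractile gene was called, where 4.73% of all genes were, and the difference of Acta2 was -0.09 ± 0.52 (adjusted p = 0.995, edgeR). The fitted differences of Cnn1 rest on 0 to 2 counts per aggregate library and are not read. The joint fit shared its estimate of the spread between the tables, with a biological coefficient of variation of 9.50% against 16.2% for the aggregate table alone. For Acta2, Cald1 and Cnn2 the SE of the difference was below that of the aggregate change alone (0.43, 0.15 and 0.245). The SEs and p-values of the differences thus understate the spread of the aggregates. Format and table cannot be told apart in these tests.

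**Figure D4:**
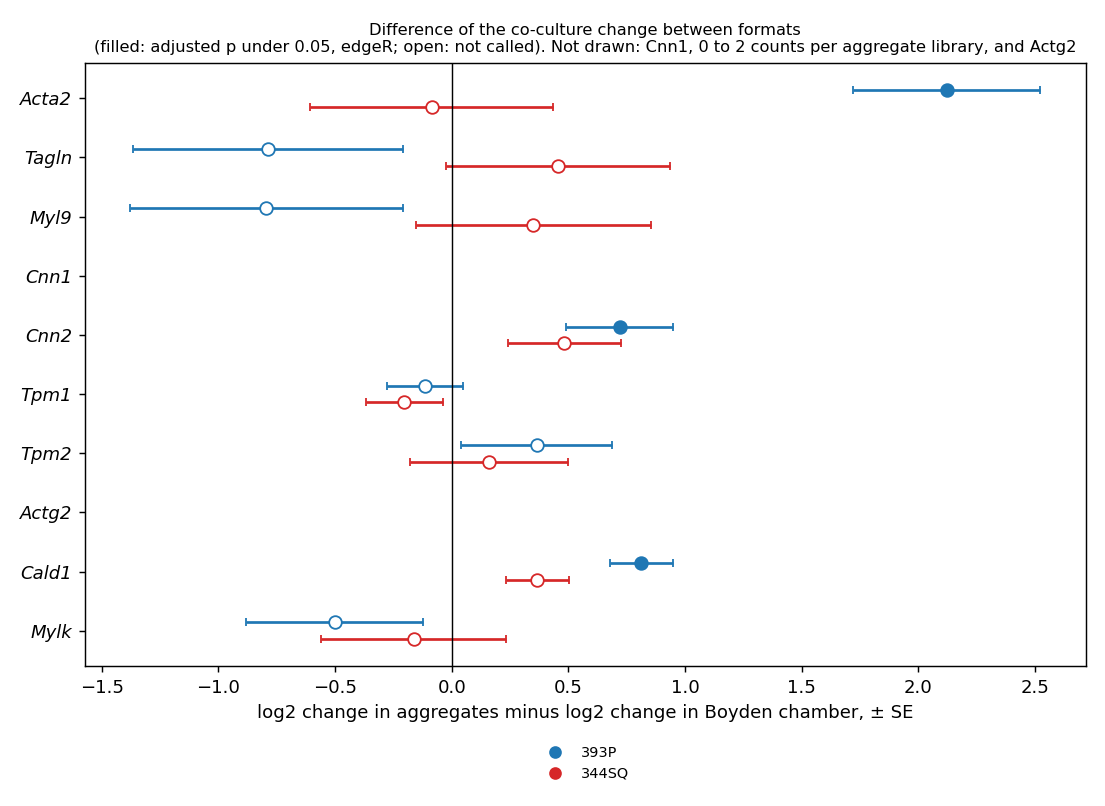
Log2 change with 393P or 344SQ in aggregates minus the same change in the Boyden chamber, ± SE, for 8 genes (rows); filled points passed the adjusted p of 0.05. For 393P, Acta2 lies at 2.12, Cald1 at 0.81 and Cnn2 at 0.72, and no point for 344SQ is filled.

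Other genes of the contractile machinery were read from 4 lists of related genes, whose counts stand against the shares of all genes called that are given above for each comparison. Of the 24 other smooth muscle genes, 16 could be tested in the Boyden chamber. With 393P, 8 of the 16 were called lower and none higher, led by Nexn, a filament protein (-0.62 ± 0.08), Cryab, a small heat shock protein (-0.57 ± 0.08), and Lmod1, a smooth muscle actin nucleator (-0.74 ± 0.11). With 344SQ, 5 were called lower and 1 higher, led by Csrp1 (-0.55 ± 0.09), Cryab (-0.49 ± 0.08), Nexn (-0.49 ± 0.08) and Mrvi1 (-0.48 ± 0.09), all lower. The median log2 changes of the 16 were -0.36 and -0.25. In aggregates with 393P, 2 of 10 tested were higher, the integrin subunit Itga8 (2.75 ± 0.62) and the LIM protein Pdlim7 (0.69 ± 0.18), and Mustn1 was lower (-2.49 ± 0.52). In the shRNA table none of the genes tested in any of the 4 lists was called.

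The list of 16 paralogs held mostly non-muscle relatives such as cytoplasmic actins and tropomyosins, with the skeletal and cardiac actins Acta1 and Actc1 also in it. Its calls in the chamber stood near the 7.96% and 7.44% of all genes called lower with 393P and with 344SQ. There Svil, an actin-bound villin relative, was called lower with 393P (-0.21 ± 0.07) and Myl12a, a non-muscle light chain, with 344SQ (-0.33 ± 0.07), each 1 of 11 tested. In 393P aggregates 3 of 10 tested were higher, namely Svil (1.30 ± 0.18), Tpm4 (0.79 ± 0.17) and the cytoplasmic actin Actb (0.50 ± 0.16). With 344SQ none was called against CAFs alone, and Svil was lower than with 393P (-1.28 ± 0.18). The difference between formats was called for 5 of 13 with 393P, all higher in aggregates, among them Svil (1.59 ± 0.16) and Tagln2 (0.83 ± 0.22), and for 1 with 344SQ (Tpm4, 0.56 ± 0.15).

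Of the 24 genes of actomyosin and its control, 7 of 23 tested were called lower with 393P in the chamber, where 7.96% of all genes were, and 2 of 23 with 344SQ, near the 7.44% of all genes, with none higher. Vinculin (Vcl), which ties actin to adhesions, changed by -0.41 ± 0.05 and -0.52 ± 0.05, and the non-muscle myosin Myh10 by -0.49 ± 0.07 and -0.63 ± 0.07. The crosslinker Actn1 (-0.23 ± 0.06) and the kinase gene Dapk3 (-0.35 ± 0.11) were lower with 393P. In aggregates Tln1 (0.52 ± 0.15) and the small GTPase gene Rhoa (0.57 ± 0.17) were higher with 393P, and Vcl was lower with 344SQ (-0.90 ± 0.19). Between the lines in aggregates Myh9, Flna and Vcl were lower with 344SQ (-0.72 ± 0.16, -0.67 ± 0.16 and -0.78 ± 0.19). The format difference was called for 6 of 24 with 393P, all higher in aggregates (Tln1, Actn1, Rhoa and Flna first, 0.56 to 0.78), and for 2 with 344SQ, Myh10 (0.95 ± 0.19) and Rhob (0.83 ± 0.23).

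The list of 24 regulators of contractile transcription had 22 members in the tables. In 393P aggregates 5 of 19 tested were higher and 1 lower. The receptor genes Notch3 (3.00 ± 0.23) and Pdgfrb (2.12 ± 0.17) and the growth factor gene Tgfb1 (1.94 ± 0.20) were higher, and Klf4, a repressor of muscle genes, was lower (-1.47 ± 0.22). Notch3 and Pdgfrb also stand in the mural marker list given above. With 344SQ in aggregates Wwtr1, the coactivator TAZ, was the sole call (0.96 ± 0.19). Against 393P, the 344SQ aggregates had 4 of 19 lower, among them Notch3 (-2.76 ± 0.22), Pdgfrb (-1.75 ± 0.16) and Tgfb1 (-1.41 ± 0.19), and Klf4 higher (1.16 ± 0.22). In the chamber 3 of 21 were higher and 5 lower with 393P, and 3 higher and 8 lower with 344SQ. Fhl1, a LIM protein, changed by -0.54 ± 0.08 and -0.77 ± 0.08, Tgfb3 by -0.45 ± 0.07 and -0.70 ± 0.08, and Tgfb2 by -0.41 ± 0.09 and -0.75 ± 0.10, while the signal carrier Smad3 was higher with 393P (0.40 ± 0.08) and Klf4 lower with 344SQ (-0.37 ± 0.06). Between the lines in the chamber Tgfb1 (0.38 ± 0.10) and Smad7 (0.27 ± 0.07) were higher and Fhl2 (-0.29 ± 0.08) and Tgfb2 (-0.35 ± 0.10) lower with 344SQ. The format difference for 393P was called in 9 of 21, 8 higher and 1 lower, led by Pdgfrb (2.33 ± 0.15), Tgfb1 (1.98 ± 0.20), Notch3 (2.92 ± 0.33) and, lower, Klf4 (-1.16 ± 0.19). For 344SQ it was called in 4, all higher, Wwtr1 (0.85 ± 0.17), Pdgfrb (0.62 ± 0.15), Tead1 (0.45 ± 0.13) and Tgfb3 (0.68 ± 0.20).

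The contractile genes differed in how near their pattern came to that of Acta2 over 5 changes (393P and 344SQ against CAFs alone in each format, and shZEB1 against shCTL). The measure was the root mean square difference of log2 changes from those of Acta2, over 6651 genes tested in all 3 tables at a mean of at least 5 CPM in each. Nearest were Tln2, a talin, at 0.38, Suv39h1, a histone methyltransferase, at 0.41, Pcdh19, a protocadherin, at 0.44, Acaa2, a mitochondrial thiolase, at 0.44 and Adamts12, a secreted protease, at 0.50. Among the contractile genes Cnn2 came nearest (0.77, rank 166), then Cald1 (0.81, rank 243) and Tpm2 (0.84, rank 299), followed by Tpm1 (0.99, rank 1005), while Tagln (1.25), Myl9 (1.31) and Mylk (1.62) ranked 3290, 3810 and 5734. For Mylk the shZEB1 change (-0.72 against 2.09) and the 393P change in aggregates (-0.83 against 1.41) had the opposite sign to those of Acta2, and for Tagln and Myl9 the latter did (-1.29 and -1.30). The 4 changes against CAFs alone share controls within a format, so this likeness is a description.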

How the data were processed

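RNA of CAFs enriched by cell sorting was sequenced as 60 libraries. The submitters' processing notes name STAR, HTSeq and mm10; tool versions, the gene annotation used, how strand was handled and filters were not given in the sources used here. The deposited values are whole-number read counts per gene, not normalized, in 3 tables that each list 48440 genes. Of the gene IDs, 48058 (99.2%) matched GENCODE M21, which gave exon lengths and positions.

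Groups came from the labels. The 3 technical libraries of a Boyden replicate were summed. Each table was fitted over all its groups with edgeR 4.0.16 (R 4.3.3; filterByExpr, TMM, quasi-likelihood test, 2-sided), and p-values were adjusted by Benjamini-Hochberg over all genes tested, with calls under 0.05. SEs were derived from the F statistic. Aggregates and Boyden sums were fitted jointly for the format difference. The scripts were tested on simulated data. DESeq2 1.42.0, other scalings (RLE, upper quartile), no filter, removal of 394 ribosomal RNA-like and mitochondrial genes, the replicate block, each replicate left out, single technical libraries and thinned sums were alternatives. The genes followed and the lists were chosen with earlier results of these data known. All 10 genes were named in every comparison, with up to 4 called genes of smallest p per list and the 5 genes most like Acta2; some results that this rule would name are not reported here. Figures were drawn with matplotlib 3.10.9.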

Additional observations from a re-analysis of the deposited data

Results flagged for a closer look

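In the Boyden chamber with 393P, Tagln stood at 525.7 CPM in replicate 3, far from the other 4 replicates (437 to 461 CPM), and Cald1 at 2508 CPM in replicate 2, far from the other 4 (2203 to 2245 CPM). These were the 2 samples that stood apart in 30 groups of 5 replicates examined, and chance flags about 1 in 20 groups.

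The change with 393P differed between aggregates and the Boyden chamber for Acta2, by 2.12 on the log2 scale, for Cald1, by 0.81, and for Cnn2, by 0.72, in the test of the difference itself. Acta2 and Cald1 kept that call in every alternative run, with Acta2 between 1.69 and 3.17, and Cnn2 did not. All of these were joint fits, whose SEs understate the spread of the aggregates. The format cannot be told apart from the table.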

How the results depend on the processing

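Of 163 alternative counts of contractile genes called, 136 stayed within 1.5 times the main count, and 33 of 77 log2 changes kept their sign and their side of the threshold in every alternative. DESeq2 called 1 gene for 393P against CAFs alone in aggregates (Cald1), 0 for 344SQ against 393P in aggregates, 1 for shZEB1 against shCTL (Acta2) and 1 for the format difference with 344SQ (Cald1). Over all genes these DESeq2 calls were 638 of 11307, 257 of 8546, 26 of 11406 and 1035 of 12184. Without the count filter 1 was called for shZEB1 (Acta2, adjusted p = 0.0305, edgeR), among 90 of 21430 genes. With 1 technical library alone per Boyden replicate, 344SQ against CAFs alone gave 3, 4 and 3 calls, 393P against CAFs alone gave 0 with the second library, and 344SQ against 393P gave 0 with the first and the third. Over all genes 344SQ against 393P had 73 calls of 10417 with the first and 152 of 11644 with the third. The last comparison also gave 0 when limited to its own groups, in thinned sums, and in the sum of 393P replicate 1 less its second technical library. Over all genes its calls there were 492 of 13497, 435 of 12884 and 573 of 13935. Leaving out 1 replicate gave 1 to 2 calls for 393P against CAFs alone in aggregates and 0 to 1 for each of 344SQ against 393P in aggregates, 344SQ against 393P in the chamber, and the format difference with 344SQ. Over all genes the calls in these fits ran from 625 to 770, 244 to 314, 378 to 759 and 565 to 797, in that order. The cause of these moves was not tested.

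The labels do not tie replicate numbers to a shared batch, and in no comparison was every same-number correlation of deviations above 0.1 (range over pairs -0.30 to 0.26). With the replicate block, 0 contractile genes were called for 344SQ against 393P in the chamber (426 of all genes, 545 without the block). For the format difference with 393P, 2 were called (1276 of all genes, 1365 without the block), and no other count of contractile genes called moved. Over all genes the calls with the block were 1796 in place of 2195 for 393P and 1767 in place of 2087 for 344SQ against CAFs alone in the chamber.

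Changes of sign, whose cause was not tested, came in log2 changes that had not passed the test. With the first technical library alone, the log2 change of Cald1 was 0.19 with 393P and 0.19 with 344SQ against CAFs alone, and for 344SQ against 393P it was -0.041 for Acta2, -0.10 for Tagln, 0.19 for Myl9, 0.063 for Cnn1, 0.075 for Cnn2 and 0.0043 for Tpm1. With the second alone it was 0.019 for Tpm1 with 393P, 0.10 for Cald1 with 344SQ and -0.085 for Tpm2 between the lines, and with the third alone 0.029 for Myl9 between the lines. For Cald1 with 344SQ it was 0.012 under upper-quartile scaling and 0.0068 in thinned sums. Leaving out 1 replicate gave log2 changes that crossed 0, as ranges. For 393P against CAFs alone in aggregates they were Tpm2 -0.50 to 0.41. For 344SQ against CAFs alone in aggregates these were Acta2 -1.41 to 0.39, Tagln -0.26 to 0.43, Myl9 -0.49 to 0.0032, Cnn2 -0.12 to 0.27, Tpm2 -0.63 to 0.28. For 344SQ against 393P in aggregates these were Tpm2 -0.28 to 0.072, Mylk -0.47 to 0.59. For 344SQ against CAFs alone in the chamber these were Cald1 -0.025 to 0.026. For 344SQ against 393P in the chamber these were Acta2 -0.017 to 0.18, Tagln -0.041 to 0.15, Myl9 -0.14 to 0.040, Tpm2 -0.017 to 0.075. For the format difference with 393P these were Tpm2 -0.11 to 0.85. For the format difference with 344SQ these were Acta2 -0.87 to 0.96, Cnn1 -4.50 to 1.24, Tpm2 -0.32 to 0.64, Mylk -0.66 to 0.21. The Cnn1 values of the format difference are set by 0 to 2 aggregate counts. Depth limits the aggregate values of Tagln, Myl9 and Mylk, with 2 to 31 counts per library, and of Cnn1 and Actg2, with 0 to 2.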
